A study of Mus musculus with 8 samples.

Results

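The GATA, NKX, HAND and MEF2 transcription factors of the cardiac core network, with the coactivator myocardin, were examined in mouse ventricles at embryonic day 15.5. The genes were chosen by name, with earlier results of these data known. They are Gata4, Gata5, Gata6, Nkx2-5, Hand1, Hand2, Mef2a, Mef2c, Mef2d and Myocd. These 10 of the 53465 genes in the table were all among the 15388 that passed a filter on low counts. Polyadenylated RNA was sequenced from 4 WT ventricles and from 4 ventricles of the line Nrg-1flox;Cdh5-CreERT2, called floxed libraries from here on, and the series' design text gives 1 ventricle per replicate. In that line a Cre recombinase that tamoxifen activates is driven by the promoter of Cdh5, a gene of endothelial cells, and the floxed gene is Nrg1, which encodes the growth factor neuregulin-1. Whether the WT embryos carried Cre or received tamoxifen, when it was given, which ventricle was taken and the sex of the embryos are not given in the sources used here. The labels do not say whether any ventricles came from the same embryo or litter, so the p-values below measure the spread between these libraries.

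As background, these factors are the DNA-binding core of the heart muscle programme. GATA factors are zinc finger proteins that bind GATA sites, NKX2-5 is a homeodomain protein, HAND factors are basic helix-loop-helix proteins that bind E-boxes as dimers, and MEF2 factors are MADS box proteins. They bind each other and shared enhancers, and myocardin, which binds no DNA itself, acts through serum response factor (SRF) on muscle genes. In the fetal ventricle Gata4, Nkx2-5 and Mef2c are known from cardiomyocytes, though Gata4 and Mef2c are not confined to these. Gata5 and Gata6 are also expressed in endocardial, epicardial or smooth muscle cells. RNA of a whole ventricle holds all of these cells, and more cells of a type cannot be told apart from more RNA per cell in it.

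The libraries held 16761763 to 24144272 expected counts, and scaling factors lay between 0.988 and 1.015. The level of the targeted gene did not bear out the labels, as it was not lower in the floxed libraries. Nrg1 was at 5.46, 4.64, 4.08 and 5.31 CPM (counts scaled to a common library size) in the WT libraries, in order of their numbers, and at 6.80, 6.35, 6.14 and 5.36 CPM in the floxed ones. All values by library below keep that order. Its log2 fold change was 0.34 (SE 0.12, edgeR's quasi-likelihood test, adjusted p = 0.311). Counts per gene in a whole ventricle do not show whether part of Nrg1 was removed in endothelial cells, and that was not tested. Every direction below is therefore that of the libraries labelled as floxed. Nor did the sex-linked genes match libraries of 1 embryo each. Xist, which female cells express, had WT values of 134, 206, 140 and 0.192 CPM and floxed values of 327, 282, 263 and 103 CPM. The sum of 4 Y-linked genes was 115, 69.3, 122 and 171 CPM and 68.3, 42.9, 58.5 and 120 CPM. In 7 of the 8 libraries, all but WT library 4, both were present at more than 20 counts, so those libraries held RNA of both sexes. How it came to be there was not tested, and what counts as 1 independent sample is therefore uncertain.

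Of the 10 genes, 6 had entries in RefSeq's table of start sites (GRCm38.p6), with 3 start sites for Mef2c. Stretches 5′ of the start are shown for Nkx2-5, which had the smallest p of the 10, and for Hand2, whose start site lies inside an antisense gene. Capitals mark matches on either strand to a GATA site (AGATAA or else AGATAG, and likewise TGATAA or else TGATAG), to the NKX core AAGTG and to the E-box CANNTG.
Nkx2-5: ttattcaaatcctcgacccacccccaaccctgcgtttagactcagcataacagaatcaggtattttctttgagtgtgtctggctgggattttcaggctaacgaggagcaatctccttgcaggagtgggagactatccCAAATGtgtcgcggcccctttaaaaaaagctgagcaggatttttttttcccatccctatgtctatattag
Hand2: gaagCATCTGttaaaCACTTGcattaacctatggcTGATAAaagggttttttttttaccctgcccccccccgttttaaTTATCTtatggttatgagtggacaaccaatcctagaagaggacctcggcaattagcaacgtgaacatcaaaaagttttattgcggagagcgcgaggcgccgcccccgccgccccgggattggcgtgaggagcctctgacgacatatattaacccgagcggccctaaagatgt

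The Nkx2-5 stretch is chr17:26841609-26841815 on the minus strand, and it lies in an intron of the longer gene model that GENCODE M21 gives. The 43 bases between it and the RefSeq start are exonic in that model and are not printed. The Hand2 stretch is chr8:57320733-57320982 on the plus strand, and all 250 of its bases lie in an annotated exon of the antisense gene Hand2os1. The Nkx2-5 window of 250 bases held 1 E-box and no match to the GATA sites or AAGTG. The Hand2 window held 2 matches to GATA sites, 2 E-boxes and 1 match to AAGTG, which lies within the E-box CACTTG. Of the 32851 RefSeq windows of that length, 26.5% held at least 1 of the 4 GATA sites, 40.7% AAGTG and 66.2% an E-box. The 3 Mef2c windows each held 1 match to AAGTG and no GATA site, and the Gata5, Mef2a and Mef2d windows held neither. No window of these genes matched the MEF2 consensus or the CArG box of SRF, which 2.92% and 1.47% of all windows held. These are matches of letters and not measured binding.

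Gata4 and Nkx2-5 had the highest expression per exonic length in WT ventricles, and Gata5 the lowest. The scale is CPM per kb of merged exons, with mean ± SD over n = 4. The ranges of Gata4 (56.8 ± 0.879) and Nkx2-5 (56.4 ± 2.13) overlapped. Mef2d (32.6 ± 0.398), Hand2 (29.5 ± 0.855), Gata6 (27.7 ± 0.880) and Mef2a (25.8 ± 0.533) followed, and of these neighbours only Hand2 and Gata6 overlapped. Myocd stood alone at 14.3 ± 0.427, above Mef2c (7.30 ± 0.324) and Hand1 (7.03 ± 0.733), which overlapped each other. Gata5 was lowest at 2.18 ± 0.205, a level from 134 to 172 expected counts per library, against 6444 to 9533 for Mef2a, which had the most counts. In the floxed libraries the means of 3 neighbouring pairs changed places, Nkx2-5 (65.4 ± 1.26) above Gata4 (59.1 ± 1.22), Gata6 (31.6 ± 0.855) above Hand2 (30.7 ± 0.631) and Hand1 (8.51 ± 1.33) above Mef2c (6.89 ± 0.179). The floxed ranges of Gata6 overlapped with those of Hand2 and Mef2d, while those of Nkx2-5 and Gata4, and of Hand1 and Mef2c, lay apart. The Mef2a and Mef2c values depend most on the length used, since their 14681 and 15715 exonic bases merge 12 and 31 transcripts in the table.

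**Figure D1:**
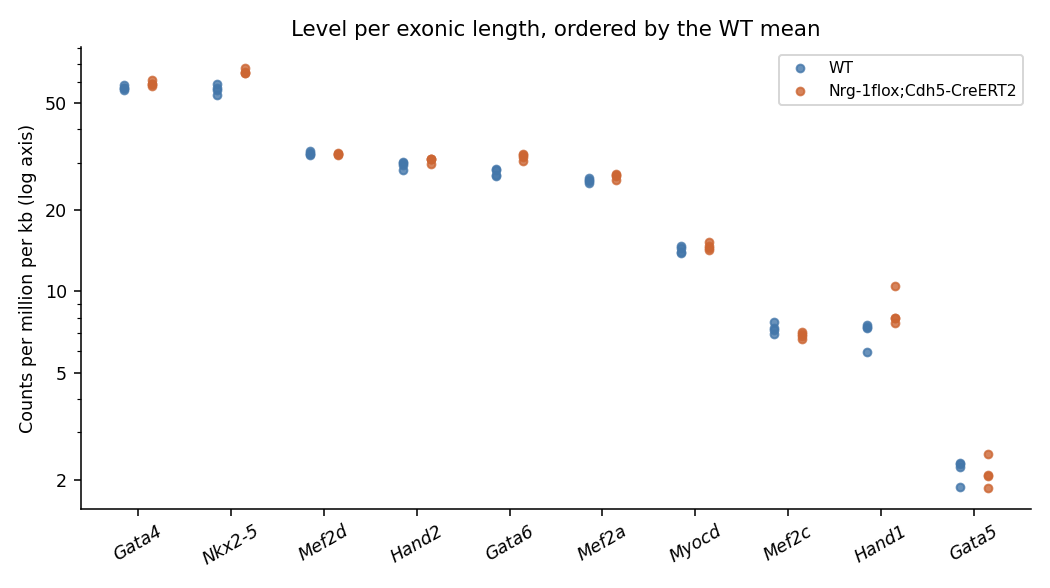
Level of each gene in each library, as CPM per kb of merged exons on a log axis, ordered by the WT mean, with 1 point per library (4 WT, 4 floxed). Gata4 and Nkx2-5 lie near 56 in WT, and Gata5 lies near 2.18.

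Between the groups, Nkx2-5 and Gata6 were higher in the floxed libraries, and no member was lower, at a false discovery rate (FDR) of 0.05 in edgeR's quasi-likelihood test, adjusted over all 15388 genes. That is 2 of 10, where 0.526% of all tested genes were called, and 0.312% were called higher. The 10 were chosen with earlier results of these data known, so shares over all genes do not test them as a set. Both differences were small, by 16.0% for Nkx2-5 and 14.4% for Gata6. For 3 of the 10 genes, Nkx2-5, Gata6 and Hand1, the WT and floxed values did not overlap, and all were higher in the floxed libraries, against 6.05% of all genes in either direction and 3.05% higher. At an unadjusted p below 0.05 in edgeR's test there were 4 of the 10, and 1622 of all 15388 genes. The 4 were the same 3 and Mef2c, which had a lower mean. The median log2 fold change of the 10 was 0.05, with 7 positive and 3 negative, where the median of all tested genes was -0.0012 and 49.4% were positive. The replicate spread of most genes was narrow, and coefficients of variation within a group ran from 0.752% (Mef2d) to 15.7% (Hand1). Counting error alone gives 1.08% to 8.41%, and it was at or above the observed variation in 4 of the 20 sets of 4 values, both of Mef2d and the floxed ones of Nkx2-5 and Hand2.

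**Figure D2:**
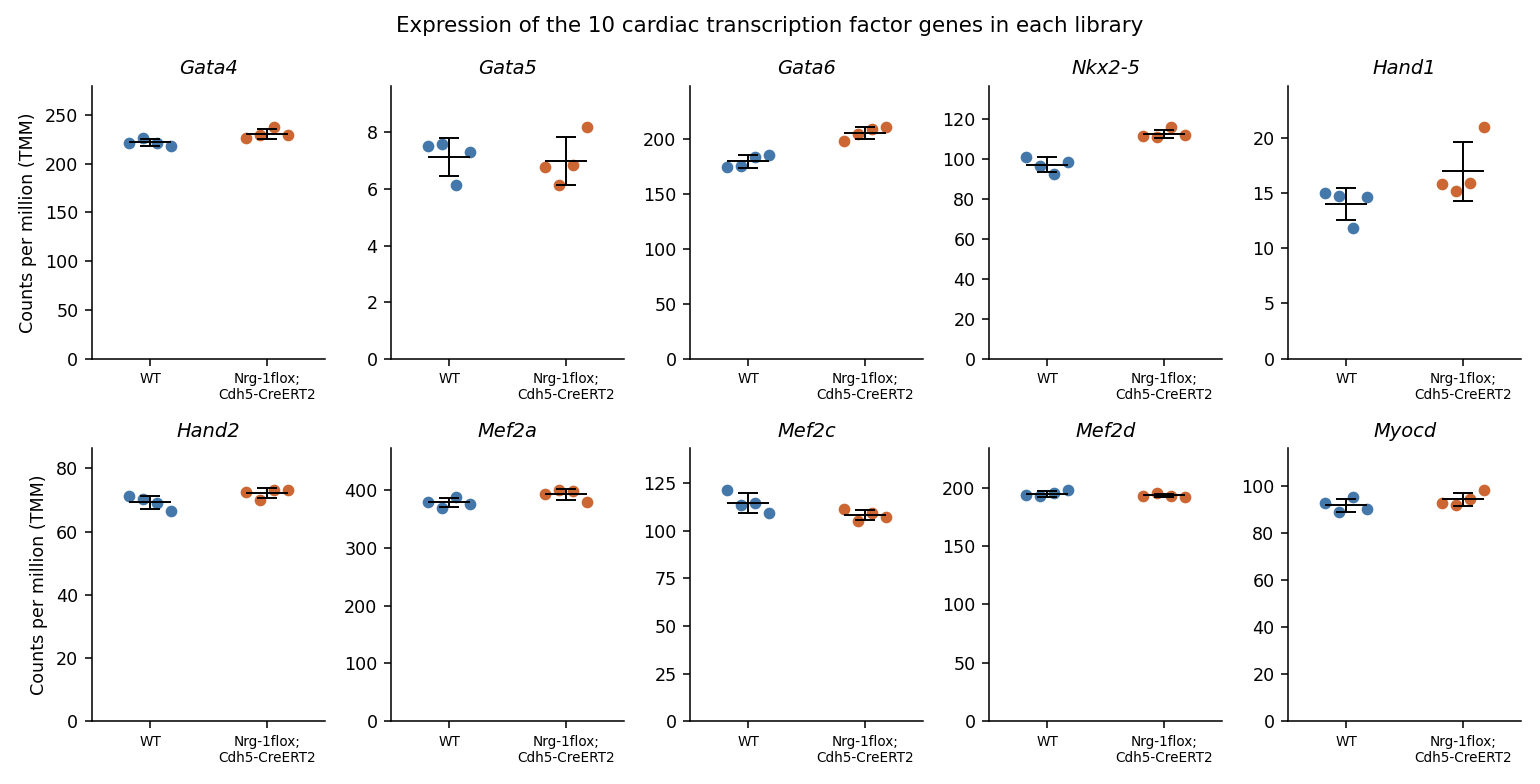
CPM of each gene in each library, on axes that start at 0, with bars for the mean and SD over 4 libraries. The floxed points of Nkx2-5 (111 to 116) and Gata6 (199 to 211) lie above all WT points, and for Hand1 floxed library 4 stands high at 20.95.

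Nkx2-5 (ENSMUSG00000015579, chromosome 17, 26838664 to 26845009, minus strand), the homeodomain factor of the early and late myocardium, had the smallest p of the 10 and ranked 20th by p among the 81 called genes. Its CPM were 101, 96.4, 92.2 and 98.1 in WT and 111, 111, 116 and 112 in floxed ventricles. The groups were separated by 9.95 CPM, and the 4 floxed values lay closer together than the WT values. Means of 96.9 ± 3.66 and 112 ± 2.16 CPM (SD, n = 4) gave a log2 fold change of 0.21, with an SE of 0.033 and a 95% interval from 0.14 to 0.29 (edgeR adjusted p = 0.0194). The transcript is the richest in G and C of the 10, at 67.1%, above 99.9% of tested genes with a known GC content. With a correction for GC content and length, chosen after seeing the data, the log2 fold change was 0.11 (SE 0.028, adjusted p = 0.118) and the call was lost. Across genes, Spearman's rho of log2 fold change with GC content was -0.0386. The 626 genes with a GC content of at least 60% had a median log2 fold change of 0.0318. The 4110 genes below 45% had a median of 0.0073, against -0.0012 for all tested genes. Both ends lay above that median, a shape that rho does not measure. The part of GC content in the Nkx2-5 difference was not tested. The correction moved no other member's log2 fold change by more than 0.013.

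Gata6 (ENSMUSG00000005836, chromosome 18, 11052064 to 11085635, plus strand), a zinc finger factor of the heart, its outflow vessels and endoderm, had WT values of 175, 176, 184 and 186 CPM. The floxed values were 199, 205, 209 and 211 CPM, so that the lowest floxed value was 12.7 CPM above the highest WT value. Means of 180 ± 5.73 and 206 ± 5.57 CPM (SD, n = 4) gave a log2 fold change of 0.19, with an SE of 0.034 and a 95% interval from 0.12 to 0.27 (edgeR adjusted p = 0.0342). After the GC and length correction it was 0.20 (adjusted p = 0.0222).

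Leaving out libraries ended the call of Gata6 more often than that of Nkx2-5, while direction and size held for both. Over 8 fits that each left out 1 library, the log2 fold change stayed between 0.19 and 0.23 for Nkx2-5 and between 0.18 and 0.21 for Gata6. Nkx2-5 was called in 5 of these fits, and lost its call without WT library 2 (adjusted p = 0.0688), WT library 3 (0.0632) or floxed library 3 (0.0862). Gata6 kept its call only without floxed library 4 (0.0419), and without each of the other 7 libraries the adjusted p lay between 0.0502 and 0.126. With the Y-linked sum as a covariate the log2 fold changes were 0.22 and 0.22 and neither passed (adjusted p = 0.0897 for Nkx2-5 and 0.0688 for Gata6). Neither estimate fell, while the SE rose from 0.033 to 0.043 for Nkx2-5 and from 0.034 to 0.040 for Gata6. The Y-linked sum itself differed between the groups, with means of 119 CPM in WT and 72.4 CPM in floxed libraries, so the covariate is partly tied to group.

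**Figure D3:**
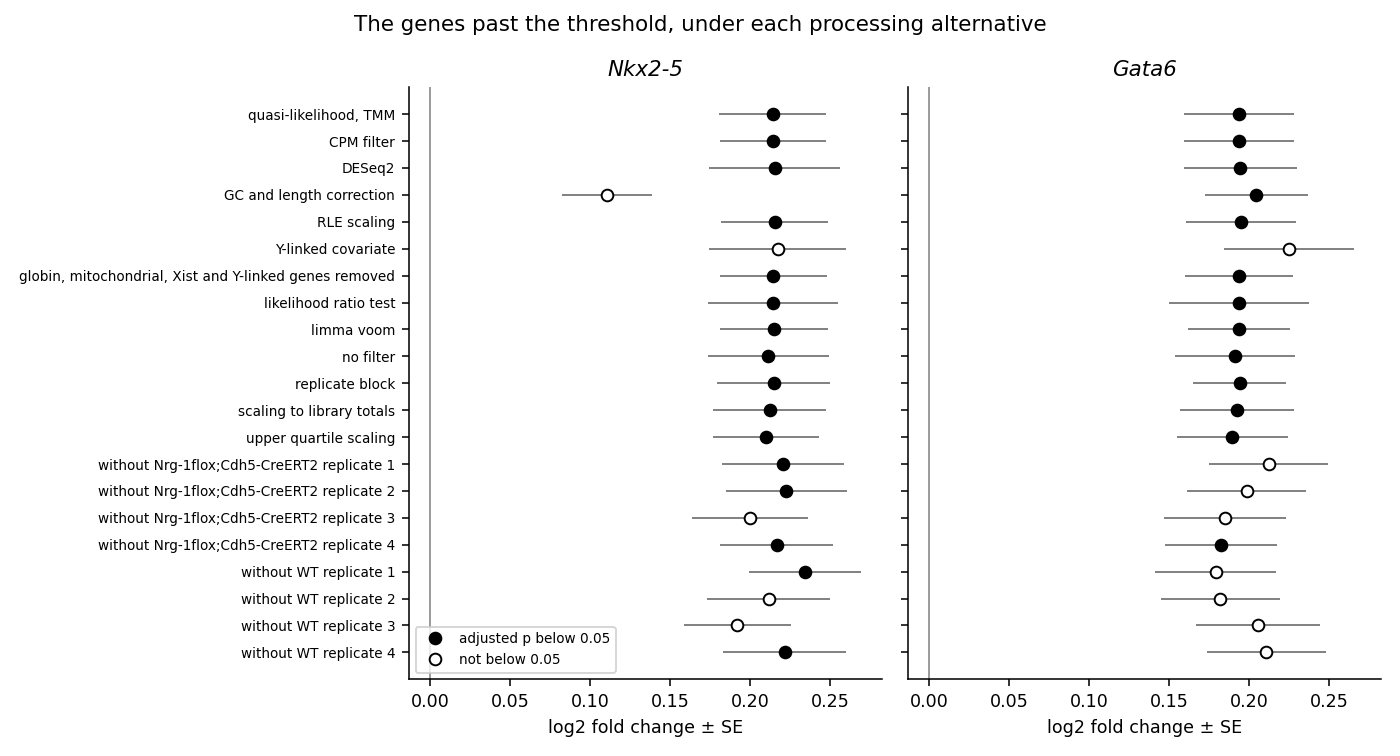
Log2 fold change ± SE of Nkx2-5 (left) and Gata6 (right) under each way of processing the counts, filled where the adjusted p was below 0.05. Nkx2-5 lies between 0.19 and 0.23 except after the GC and length correction (0.11), and Gata6 between 0.18 and 0.22.

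Single markers of the cells in the ventricle had log2 fold changes about as large as these, and their part in the results was not tested. Chosen after their values were seen, Kdr and Esam of endothelial cells were at -0.17 (edgeR adjusted p = 0.0693) and -0.15 (0.0584). The endocardial marker Emcn was at 0.18 (0.358), while Nfatc1 and Npr3 of the same list went the other way, at -0.15 (0.393) and -0.056 (0.832). The epicardial marker Upk3b was at 0.15 (0.197). Of 10 cardiomyocyte markers none was called, 6 had positive log2 fold changes, and their summed level ran from 34443 to 39391 CPM in WT and from 34126 to 39933 CPM in floxed ventricles. Of 10 endothelial and endocardial markers none was called and 8 were negative, with sums of 1360 to 1398 and 1265 to 1357 CPM, which did not overlap. Of 8 epicardial markers none was called and all 8 were positive, with sums of 190 to 204 and 199 to 227 CPM. By comparison, the summed level of the 10 factors ran from 1355 to 1378 CPM in WT and from 1421 to 1453 CPM in floxed ventricles, a range that also did not overlap. That sum includes the called Gata6 (means of 180 and 206 CPM) and Nkx2-5 (96.9 and 112 CPM), so its gap is not separate from their differences. The 10 were also chosen with earlier results known, and whether they shifted as a set was not tested.

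The other GATA genes did not pass the test. Gata4 (ENSMUSG00000021944, chromosome 14, 63198922 to 63271692, minus strand), the most abundant GATA factor of the ventricle here, had WT values of 221, 227, 221 and 219 CPM. The floxed values were 226, 230, 237 and 229 CPM, and of the WT values that of library 2 alone lay among them. Its log2 fold change of 0.06 (SE 0.030) had a 95% interval from -0.0093 to 0.12 (edgeR adjusted p = 0.568). Gata5 (ENSMUSG00000015627, chromosome 2, 180325133 to 180334699, minus strand), known from the endocardium and epicardium, ranged from 6.15 to 7.59 CPM in WT and from 6.13 to 8.18 CPM in floxed ventricles. Its log2 fold change of -0.04 had a 95% interval from -0.28 to 0.20 (edgeR adjusted p = 0.946), so a change of the size seen in Gata6 was not detectable at this depth. Of the summed GATA level per kb in WT, Gata4 made up 65.6% ± 0.851, Gata6 31.9% ± 0.976 and Gata5 2.52% ± 0.239 (SD, n = 4). In floxed libraries the shares were 63.6% ± 0.613, 34.1% ± 0.397 and 2.30% ± 0.269.

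Hand1 (ENSMUSG00000037335, chromosome 11, 57828705 to 57832818, minus strand), known from the left ventricle, had the largest fold change of the 10 and a wide spread. Its CPM were 14.99, 14.7, 11.9 and 14.6 in WT and 15.9, 15.2, 15.9 and 20.95 in floxed ventricles. WT library 3 stood low and floxed library 4 stood high, and the closest values of the groups were 0.242 CPM apart. The log2 fold change of 0.27 (SE 0.11) had a 95% interval from 0.039 to 0.50 (edgeR adjusted p = 0.390). It was 0.16 without floxed library 4 (adjusted p = 0.489) and 0.20 without WT library 3 (adjusted p = 0.608).

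Hand2 (ENSMUSG00000038193, chromosome 8, 57320983 to 57324633, plus strand), the more abundant HAND gene, had WT values of 71.2, 70.2, 69.0 and 66.6 CPM and floxed values of 72.7, 70.03, 73.1 and 73.2 CPM. The value of floxed library 2 lay below those of WT libraries 1 and 2, and the other floxed values lay above all WT values. The log2 fold change was 0.06 (SE 0.032, edgeR adjusted p = 0.553). Hand2 shares 461 exonic bases, 19.6% of its exons, with Hand2os1 on the other strand, and its counts were not whole numbers in any of the 8 libraries, as happens where RSEM divides reads between genes. Hand2os1 ranged from 54.1 to 59.3 CPM in WT and from 50.4 to 59.1 CPM in floxed ventricles, and the summed counts of both genes gave a log2 fold change of 0.04 (adjusted p = 0.781). Whether counting used the strand is not given in the sources used here, so the level of Hand2 is uncertain to that extent.

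The MEF2 genes, MADS box factors of muscle differentiation, did not pass the test, and they differed in sign. Mef2c (ENSMUSG00000005583, chromosome 13, 83504034 to 83667080, plus strand), the MEF2 gene that the early heart tube requires, had WT values of 121, 113, 115 and 109 CPM. The floxed values were 111, 105, 109.6 and 107 CPM, below the WT mean of 115 ± 5.10 CPM in 4 of 4 but overlapping with WT library 4. Its log2 fold change of -0.083 (SE 0.037) had a 95% interval from -0.16 to -0.0035 (edgeR adjusted p = 0.449).

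Mef2a (ENSMUSG00000030557, chromosome 7, 67231163 to 67372858, minus strand) ranged from 369 to 388 CPM in WT and from 379 to 399.9 CPM in floxed ventricles, with a log2 fold change of 0.05 (SE 0.031, edgeR adjusted p = 0.600). Mef2d (ENSMUSG00000001419, chromosome 3, 88142372 to 88172086, plus strand) had the narrowest ranges, from 193 to 198 CPM in WT and from 192 to 195 CPM in floxed ventricles. Its log2 fold change was -0.010 with a 95% interval from -0.072 to 0.051, which corresponds to 0.952-fold to 1.04-fold of the WT level. Mef2a, Mef2d, Gata5 and the called Gata6 also share exonic bases with genes on the other strand, at most 8.87% of the exons (Mef2d) and 1.43% for Gata6.

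Myocd (ENSMUSG00000020542, chromosome 11, 65176561 to 65269989, minus strand), the SRF coactivator of heart and smooth muscle, had WT values of 92.8, 89.0, 95.1 and 90.1 CPM and floxed values of 92.7, 91.7, 94.3 and 98.1 CPM. The 2 lowest values were of WT and the highest was of floxed library 4, with the other values intermingled, and the log2 fold change was 0.04 (SE 0.033, 95% interval -0.034 to 0.11, edgeR adjusted p = 0.767).

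**Figure D4:**
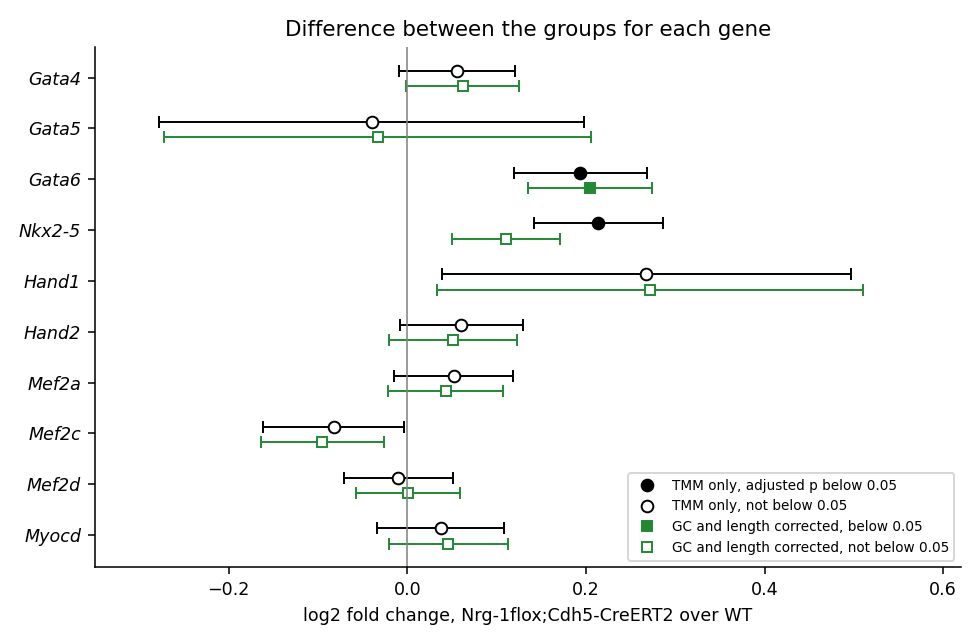
Log2 fold change of each gene, floxed over WT, with 95% confidence intervals, from the scaled counts (circles) and after the GC and length correction (squares), filled where the adjusted p was below 0.05. Gata6 is filled in both, and Nkx2-5 moves from 0.21 to 0.11.

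Ratios within a library were compared to ask whether the members of a family changed their balance, since such ratios do not depend on the scaling between libraries. Gata4 stood at 2.06 times the Gata6 level per kb in WT and at 1.87 times in floxed libraries, and the 4 floxed log2 ratios (0.86 to 0.92) lay below the 4 WT ratios (0.97 to 1.11). That is the smallest exact permutation p the design allows (p = 0.0286, two-sided, 70 assignments), and it did not pass after adjustment over 5 ratios (0.0714). With that smallest p no ratio can pass the adjustment alone, whatever its size, but only together with others. The ratio of Mef2a to Mef2c was 3.53 in WT and 3.88 in floxed libraries, also without overlap (exact permutation p = 0.0286, adjusted 0.0714). The ratios of Mef2d to Mef2c (4.46 and 4.69, exact permutation p = 0.171), Hand1 to Hand2 (0.238 and 0.275, p = 0.114) and Gata5 to Gata4 (0.0382 and 0.0359, p = 0.457) overlapped between the groups. No ratio passed after adjustment with all libraries, whereas 4 of the 5 did without WT library 4 (each exact permutation p = 0.0286, adjusted 0.0357). Passing there depended on how many ratios reached that p together.

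Over the 8 libraries, none of 45 pairs of the 10 genes was correlated after adjustment, at a smallest adjusted p of 0.204 for Pearson's r and 0.0513 for Spearman's rho, and 8 pairs had an unadjusted exact p below 0.05 by r. The strongest by r was Hand2 with Mef2d, where Pearson's r was -0.87 (p = 0.00563, exact permutation) and Spearman's rho was -0.81 (p = 0.0218, exact permutation, adjusted 0.180). It fell to -0.59 without WT library 4 and floxed library 4. By rho the strongest were Nkx2-5 with Hand1 (0.95, exact permutation p = 0.00114, adjusted 0.0513, with r of 0.72, and 0.48 without WT libraries 2 and 3) and Hand1 with Hand2 (0.91, exact permutation p = 0.00456, adjusted 0.103, with r of 0.62). The groups of both Nkx2-5 and Hand1 lay apart, and in deviations from the group means their r was 0.45 (exact permutation p = 0.226 within the groups). For Nkx2-5 and Gata6, whose groups also lay apart, a pooled value would restate the group difference, and their deviations from the group means had r of -0.19 (exact permutation p = 0.748 within the groups). In deviations from the group means, Gata5 and Hand1 had the strongest relation, with r of 0.97 (exact permutation p = 0.00521 within the groups, adjusted 0.208) and 0.91 without WT library 3 and floxed library 4. Both genes were lowest of their group in WT library 3 and highest in floxed library 4.

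The genes known to work with these factors were not called. Of 29 partners and co-regulators, which include the FOG, T-box, HDAC, Id and Hey families, 27 were tested, 13 had positive and 14 negative log2 fold changes, and the median was -0.011. Id3, an inhibitor of basic helix-loop-helix factors, had the smallest p, with 74.7 to 78.2 CPM in WT and 66.3 to 72.8 CPM in floxed ventricles (log2 fold change -0.13, edgeR adjusted p = 0.127). Hey1, a Notch target and repressor, followed at 16.8 ± 1.35 and 13.7 ± 1.28 CPM (log2 fold change -0.30, edgeR adjusted p = 0.158). The untested genes Mef2b and Nkx2-6 reached at most 0.126 and 0 CPM.

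Of 20 cardiomyocyte genes known as targets of these factors, all were tested, none was called and 10 were positive and 10 negative, with a median of 0.0023. The summed level ran from 31780 to 32959 CPM in WT and from 30870 to 33772 CPM in floxed ventricles. Myh6, the alpha myosin heavy chain, had the smallest p, at 2330 ± 187 and 2041 ± 86.5 CPM (log2 fold change -0.19, edgeR adjusted p = 0.134), and Adora1, an adenosine receptor, was at 36.6 ± 3.44 and 31.6 ± 1.87 CPM (-0.21, edgeR adjusted p = 0.222). Both fold changes were opposite in sign to those of Nkx2-5 and Gata6.

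Of 8 smooth muscle targets of SRF and myocardin, all were tested and none was called, and 6 were negative, with a median of -0.083. Lmod1, the smooth muscle leiomodin, had means of 2.98 ± 0.668 and 1.47 ± 0.402 CPM (SD, n = 4, log2 fold change -1.03, edgeR adjusted p = 0.0640). Acta2, smooth muscle alpha actin, which fetal cardiomyocytes also express, was at 1308 ± 46.8 and 1423 ± 55.4 CPM (log2 fold change 0.12, edgeR adjusted p = 0.184). In the 3 lists together 12 of 55 tested genes had an unadjusted p below 0.05, where 1622 of all 15388 genes did.

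**Figure D5:**
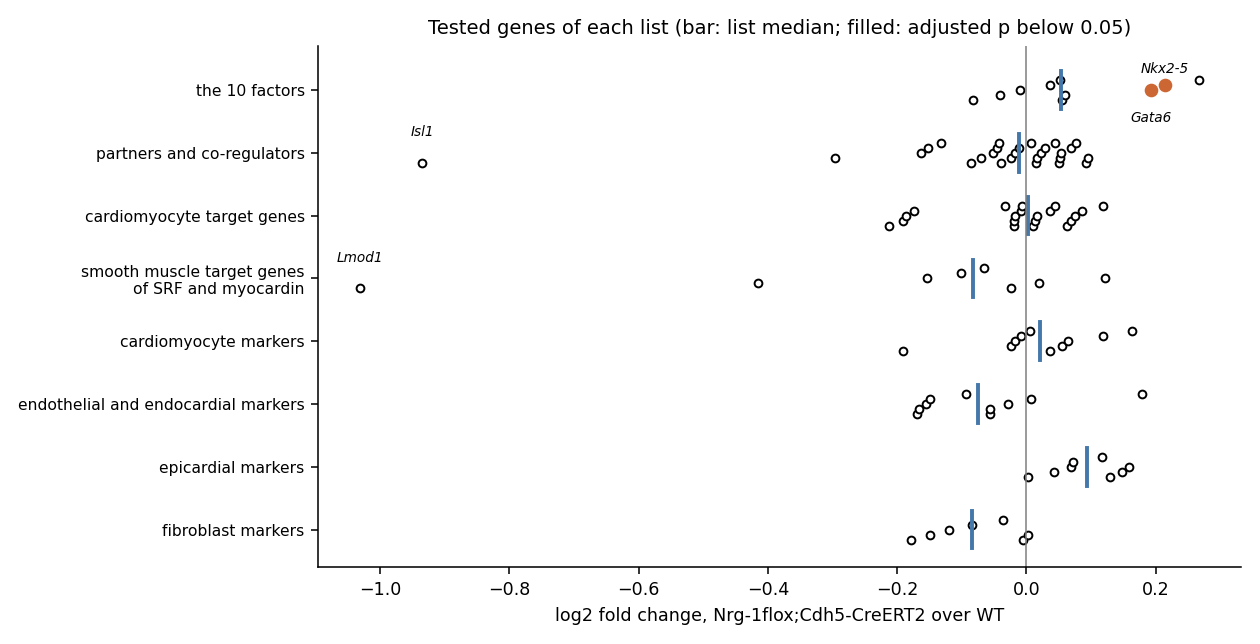
Log2 fold change (floxed over WT) of each tested gene, with 1 row per list, a bar at the list's median and filled points for genes with an adjusted p below 0.05. Filled points occur only for Nkx2-5 and Gata6, and Lmod1 (-1.03) and Isl1 (-0.94) lie far to the left. Their SE, which are not drawn, were 0.223 and 0.294.

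The pattern of Nkx2-5 across the 8 libraries was closest to those of Emc6, Eif4ebp1 and Mrpl52 among 15387 other tested genes. Likeness was the root mean square difference of log2 CPM after centring each gene on its own mean, which was 0.0271, 0.0287 and 0.0301, against a root mean square of 0.113 for Nkx2-5 itself. Of these, Eif4ebp1 was itself called (log2 fold change 0.22, edgeR adjusted p = 0.0109), while Emc6 (0.18, adjusted p = 0.0711) and Mrpl52 (0.18, adjusted p = 0.0635) were not. The likeness includes the group difference, so log2 fold changes near that of Nkx2-5 follow from the choice and are no separate result.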

How the data were processed

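Ventricle RNA was made into directional libraries and read as 60-base single reads, per the labels. The deposited values are expected counts per Ensembl gene, which the authors made with RSEM 1.3.1 on GRCm38 (cutadapt is also named in the submitters' processing notes, and the table's name gives Ensembl release 91). RSEM divides reads that match several genes, and 18.1% of the values were not whole. Samples were grouped by their titles.

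After rounding, a filter (filterByExpr by group) and TMM scaling, a quasi-likelihood model of group was fitted in edgeR 4.0.16 (glmQLFit, glmQLFTest, R 4.3.3) and tested two-sided, with Benjamini-Hochberg adjustment and an FDR of 0.05. SE and 95% confidence intervals were derived from the F statistic. CPM are TMM-scaled, and levels per kb use merged GENCODE M21 exons (same assembly, matching 53360 of 53465 identifiers). Ratios and correlations had exact permutation tests over samples, and within the groups the 576 pairings that keep each library in its group. Scripts were tested on simulated data. Depth was 16761763 to 24144272 expected counts per library, at which counting error alone gives the 10 genes a coefficient of variation of 1.08% to 8.41%.

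Named were the 10 members, called list genes, the 2 genes with the smallest p in each of the partner, cardiomyocyte target and smooth muscle target lists, Nrg1, Xist and the Y-linked sum, and the 3 genes most like the member with the smallest p. Isl1, Cited1, Tbx5, Kdr, Esam, Emcn, Nfatc1, Npr3 and Upk3b were named after their values were seen. Members and lists were chosen with earlier results of these data known.

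Alternatives were scaling by RLE, by the upper quartile or by totals, testing with no filter or with CPM of at least 1 required in 4 libraries, the likelihood ratio test, DESeq2 1.42.0, limma voom 3.58.1, leaving out each library, the replicate number as a block, the Y-linked sum as covariate, removal of Xist and of globin, mitochondrial and Y-linked genes, an FDR of 0.1 and, for ratios, a pseudocount of 0.5. A GC and length correction (lowess, span 0.3) and the sum of Hand2 and Hand2os1 were added after seeing the data. Figures were drawn with matplotlib 3.10.9.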

Additional observations from a re-analysis of the deposited data

Results flagged for a closer look

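Of 30 groups of 4 values examined with Dixon's test (the 10 genes and 5 family ratios, in each group), 5 held a value far from the others, where chance gives about 1 in 20, or 1.5. The ratios are built from the same genes, so the groups are not independent and the same Hand1 value of floxed library 4 enters 2 of the 5. Hand1 stood at 11.9 CPM in WT library 3, where the other WT libraries held 14.6 to 14.99 CPM. It stood at 20.95 CPM in floxed library 4 against 15.2 to 15.9 CPM in the other floxed libraries. Hand2 stood at 70.03 CPM in floxed library 2 against 72.7 to 73.2 CPM. The log2 ratio of Gata5 to Gata4 was -4.91 in WT library 3 against -4.65 to -4.62, and that of Hand1 to Hand2 was -1.57 in floxed library 4 against -1.97 to -1.96.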

How the results depend on the processing

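Of the 10 genes, 2 were called (Nkx2-5 and Gata6). With the Y-linked covariate 0 were, with the GC and length correction 1 (Gata6), and over the fits that left out a library 0 to 2, with 0 in 3 of 8. The other 10 fits and an FDR of 0.1 called the same 2. All genes called numbered 81, against 16 with the covariate, 195 with DESeq2, 242 with the likelihood ratio test, 338 with no filter and 11 to 142 without a library. The median log2 fold change of the 10 genes stayed between 0.043 and 0.058. The sign of Gata5 turned with the covariate (0.047) and without floxed library 2 (0.022, range over libraries -0.12 to 0.022), and that of Mef2d with the GC and length correction (0.0010). Of the partners and targets 0 were called, against 3 with DESeq2 (Acta2, Lmod1 and Myh6), 1 with the likelihood ratio test (Lmod1), 5 with no filter (Adora1, Gja5, Hey1, Lmod1 and Myh6) and 0 to 1 without a library. For these the cause was not tested. Of the ratios 0 passed, against 0 to 4 without a library.

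With the replicate number as a block, 2 of the 10 genes (Nkx2-5 at 0.21 and Gata6 at 0.19) and 93 of all genes were called. No ratio could pass there, since the exact permutation p of 4 differences within numbers cannot fall below 0.125. Deviations of libraries with the same number had r of 0.0998, 0.0474, 0.0447 and 0.121 across genes. Each library correlated best with its own number, a hint from the data and not the design, so equal numbers were not taken as pairs. The depth limits Gata5, at 134 to 172 counts per library, and gene-level counts do not tell isoforms apart.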

Other observations

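Other lists of cell type and region markers held no called gene in edgeR's quasi-likelihood test. Hand1 is a left ventricle enriched gene, and the other genes of that short list went the other way: Cited1 had means of 170 ± 17.3 and 140 ± 5.17 CPM in WT and floxed ventricles (SD, n = 4, log2 fold change -0.28, adjusted p = 0.0693), and Tbx5 at 46.1 ± 2.79 and 41.3 ± 2.77 CPM (-0.16, adjusted p = 0.277). The 5 atrial markers were all negative (median -0.13), as were the 3 outflow and second heart field genes, of which Isl1 was at 0.988 ± 0.234 and 0.520 ± 0.143 CPM (adjusted p = 0.241). Of 7 fibroblast markers 6 were negative (median -0.085). Erythroid markers summed to 4268 to 9378 CPM in WT and 5849 to 9975 CPM in floxed libraries (7 of 8 positive), and macrophage markers to 70.7 to 100 and 81.2 to 114 CPM (5 of 7 positive). Of 3 neural crest and Schwann markers 1 was tested, and the 3 summed to at most 4.62 CPM. No hepatocyte marker of 4 passed the filter, and they summed to at most 1.96 CPM. The 4 Y-linked genes were all negative, with a median of -0.76.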
